A study of Mus musculus with 20 samples.

Results

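The genes described here encode the nuclear subunits of oxidative phosphorylation, read in sorted stromal cells of mouse marrow in which Ebf1, a transcription factor best known from B cells, was floxed or intact. They were taken by symbol: Nduf followed by a, b, c, s or v and a number for complex I, Sdh a to d for complex II, Uqcr for complex III, Cox4 to Cox8 for complex IV and Atp5 for complex V. Of 24347 gene symbols listed, 88 matched, and 85 of them reached at least 1 FPKM in 3 or more of 12 RNA libraries. FPKM counts fragments per kilobase of transcript and in relation to all mapped fragments, so that levels of different genes can be set side by side. The 85 genes comprised 37 of complex I, 8 of complex II, 8 of complex III, 16 of complex IV and 16 of complex V. The 3 genes left out were the membrane-ring gene Atp5g2 and the testis isoforms Cox7b2 and Cox8c, with 0 to 0.0914, 0 to 1.17 and 0 to 0.897 FPKM. The symbol rule also took Sdhaf1 to Sdhaf4, which are assembly factors of complex II, and Atp5s and Atp5sl, which are not subunits of the ATP synthase. Ndufa4, a subunit of complex IV, and its isoform Ndufa4l2 were counted with complex I by symbol.

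Cells of femora and tibiae were sorted into CAR cells (CXCL12-abundant reticular cells, gated CD45-CD31-Lin-PDGFRα+Sca1-) and into PaS cells (the same gates, but Sca1+), and each of 4 groups had 3 libraries. CAR ko and PaS ko cells had the genotype Ebf1fl/fl;Prx1+/cre, and CAR wt and PaS wt cells had Ebf1+/+;Prx1+/cre. All groups were C57BL/6 and carried the same Prx1-Cre transgene, which acts in limb mesenchyme and its descendants. The labels give no age and do not say whether replicates came from separate animals, so that p-values measure only the spread between these samples. The 8 ATAC-seq samples of the series were not analysed here.

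Mitochondrial respiration passes electrons from NADH through complex I, and from succinate through complex II, to ubiquinone, then through complex III and cytochrome c to complex IV, which reduces oxygen. Complexes I, III and IV pump protons, and complex V, the ATP synthase, uses the gradient to make ATP. Most subunits are encoded in the nucleus, some complex IV and complex I family subunits exist as tissue or oxygen-dependent isoforms, and the remaining core subunits are encoded in mitochondrial DNA. Bone marrow stromal progenitors are known to rely largely on glycolysis and to raise respiration as they differentiate. None of the 13 mitochondrially encoded subunits was among the symbols of the files, so only the nuclear side was read.

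Before the members, the groups were checked. Ebf1 itself had 56.0, 56.7 and 59.8 FPKM in CAR ko libraries, against 48.9, 48.5 and 46.8 FPKM in CAR wt libraries, and 65.0, 61.9 and 60.8 FPKM in PaS ko libraries, against 55.0, 62.1 and 50.5 FPKM in PaS wt libraries. The targeted gene was therefore not lower in the libraries labelled ko, and in CAR cells it was higher, with a log2 fold change of 0.25 (limma, SE 0.08, adjusted p = 0.04); a whole-gene value can include exons outside the deleted part and then checks nothing, and ko below names the libraries by their label. All 10 CAR marker genes were higher and all 10 PaS marker genes lower in CAR than in PaS libraries in both genotypes. Each library summed to between 491801 and 526074 FPKM over all genes, the oxidative phosphorylation genes held 2.28% to 3.02% of them, and the read depth is not given. PaS wt replicate 1 had 24.6% of its genes listed at 0; the other 11 libraries had 33.3% to 37%.

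A pair of libraries stood low in these genes. Measured as the deviation of each gene from its group mean on the log2(FPKM + 1) scale, CAR ko replicate 1 had a median of -0.15, with 78 of the 85 genes below the group mean. PaS wt replicate 2 had a median of -0.10, with 69 of 85 below. The medians of the other 10 libraries lay between -0.05 and 0.11, the highest being that of PaS wt replicate 3, with 8 of 85 below. The 82 genes with cytosolic ribosomal symbols, among them some S6 kinase genes (Rps6k), moved with the low pair. Their medians were -0.16 in CAR ko replicate 1 and -0.14 in PaS wt replicate 2. The 76 of the mitochondrial ribosome did so too (-0.09 and -0.08), whereas the median over all 12938 tested genes was 0.00 in both libraries. The part of this library-wide shift in the comparisons below was not tested. Values without the low pair or PaS wt replicate 3 are given beside the results that they move.

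**Figure D1:**
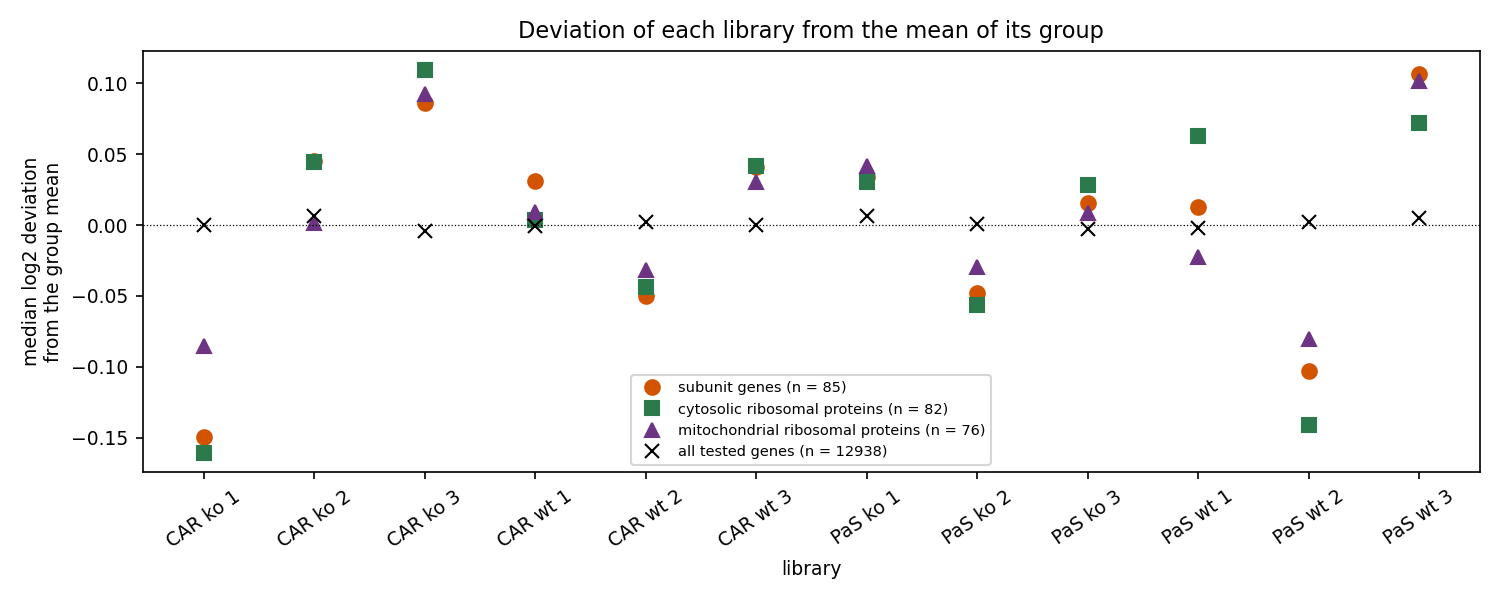
Median log2 deviation of each library from the mean of its group (y axis, log2(FPKM + 1) scale) for the 85 oxidative phosphorylation genes, cytosolic ribosomal proteins, mitochondrial ribosomal proteins and all tested genes. CAR ko replicate 1 (-0.15) and PaS wt replicate 2 (-0.10) are the lowest for the oxidative phosphorylation genes. All tested genes stay at about 0 in every library. The cytosolic ribosomal set was taken by symbol and includes some S6 kinase genes.

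The pathway was expressed at high level in both cell types. Over the 12 libraries, 45 of the 85 genes averaged at least 100 FPKM, 33 averaged 10 to 100 FPKM and 7 averaged less than 10 FPKM. The highest gene of complex I was Ndufa3, a small accessory subunit, with a mean of 625 FPKM. Sdhb, the iron-sulfur subunit of succinate dehydrogenase, led complex II with 128 FPKM, and Uqcr10, a small subunit of the cytochrome bc1 complex, led complex III with 326 FPKM. Cox6a1, the ubiquitous form of a regulatory subunit, led complex IV with 534 FPKM, and Atp5b, the catalytic beta subunit, led complex V with 459.7 FPKM. Within a complex whose subunits assemble in fixed ratio, levels of RNA thus differed widely: the lowest member means were 4.01 FPKM for Ndufs5 in complex I, 83.5 FPKM for the anchor Sdhc among the 4 subunits of complex II, 56.2 FPKM for the core protein Uqcrc2 in complex III and 5.80 FPKM for Atp5l, the g subunit of complex V.

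Several required subunits were listed far below their partners. Ndufs3, a core subunit of complex I, averaged 11.9 FPKM, Ndufb4 averaged 12.4 FPKM, and Cox7c averaged 8.88 FPKM. Ndufs5 was read at 4.08, 13.2 and 4.04 FPKM in CAR ko libraries, at 4.04 FPKM or more in 5 of 12 libraries in all, and at 0.000332 FPKM or less in the other 7, among them all 3 PaS wt libraries. Such values fall apart within groups, so the fitted changes of Ndufs5 are not described. Levels are uncertain for genes with near-identical copies elsewhere in the genome, whose reads the authors' counting could have split. Atp5b was the steadiest gene, with a highest library at only 1.10 times the lowest. In all, 51 genes varied by less than 1.5 times between their lowest and highest library, 20 by 1.5 to 2 times and 6 by 2 to 3 times. The 8 that varied by more than 3 times or were at 0 in a library were Ndufa4l2, Cox4i2, Cox6b2, Cox6a2, Cox7a1, Cox8b, Atp5l and Ndufs5, of which the first 6 are alternative isoforms of a more abundant partner.

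Summed over all 85 genes, the level was 13656 ± 1259.8 FPKM in CAR ko and 14951 ± 524 FPKM in CAR wt libraries, and 12845 ± 455 FPKM in PaS ko and 12244 ± 932 FPKM in PaS wt libraries (SD, n = 3 each). By symbol, and so with Ndufa4 and Ndufa4l2, complex I summed to 5939 ± 565 FPKM in CAR ko and 6476 ± 204 FPKM in CAR wt libraries. In PaS ko libraries it summed to 5464 ± 235 FPKM, and in PaS wt libraries to 5140.1 ± 406 FPKM. Complex II, which also works in the citric acid cycle, was the flattest. With its assembly factors it had 509 ± 21.2, 530.2 ± 15.2, 529.6 ± 15.2 and 515 ± 29.8 FPKM in CAR ko, CAR wt, PaS ko and PaS wt libraries. Its 4 subunits alone summed to 409, 427, 434 and 428 FPKM in the same order. Ranges of CAR ko and CAR wt libraries overlapped in every complex except complex IV, where the sums were 2503 to 3105 FPKM in CAR ko and 3112 to 3293 FPKM in CAR wt libraries. Ranges of PaS ko and PaS wt libraries overlapped in all 5 complexes. In bulk RNA, fewer cells of a type and less RNA per cell cannot be told apart.

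**Figure D2:**
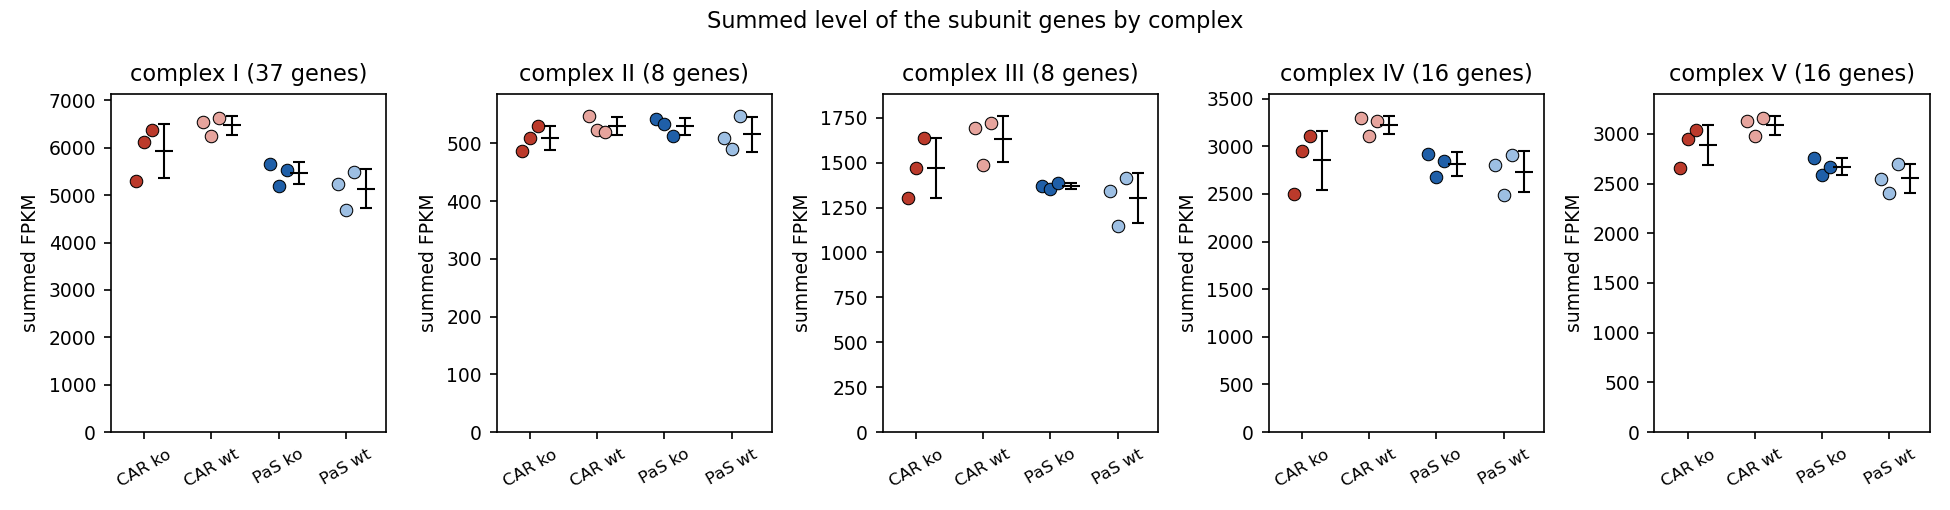
Summed FPKM of the oxidative phosphorylation genes by complex (y axis) in each library of CAR ko, CAR wt, PaS ko and PaS wt (x axis). Points are libraries and bars are the mean and SD of 3; complex II is flat over the groups, and the means of the other complexes are highest in CAR wt libraries.

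The first comparison asked what the ko genotype changed in CAR cells. The clearest change was a rise of Ndufa4l2, the isoform of Ndufa4 known as a hypoxia-inducible gene, to 2.02 times its wt level. Against it stood small decreases, to 0.82 to 0.86 times the wt level, in 6 widely expressed subunits, among them the cytochrome oxidase subunits Cox4i1, Cox5a and Ndufa4, and a larger decrease of the alternative isoform Cox6b2. Of the 85 genes, 9 were called in limma's moderated test (Benjamini-Hochberg adjusted p under 0.05), against 12.3% of all tested genes: 2 were higher, against 6.51% of all genes, and 7 lower, against 5.74%. The members' shares were 10.6% in either direction, 2.35% higher and 8.24% lower. The median log2 fold change of the 85 was -0.10, beside 0.01 over all genes, and 71 of 85 lay below 0. Without CAR ko replicate 1, 2 of 85 were called, the median was -0.04 and 56 of 85 lay below 0. The share lower was then 1.18%, against 4.54% of all genes. Without CAR ko replicate 2, 6 were called, the median was -0.13 and 73 of 85 lay below 0. Without CAR ko replicate 3, 7 were called, the median was -0.16 and 78 of 85 lay below 0. The shares lower were then 5.88% and 7.06%, against 4.31% and 4.29% of all genes. Leaving out a CAR wt library also lowered the count, to 2 without replicate 1, 4 without replicate 2 and 4 without replicate 3. The shares lower were then 1.18%, 3.53% and 2.35%, against 4.25%, 4.32% and 4.37% of all genes.

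Genes with complex I symbols held the largest called rise. Ndufa4l2 had 39.7, 35.9 and 41.2 FPKM in CAR ko libraries, against 16.3, 20.9 and 19.2 FPKM in CAR wt libraries. Every CAR ko library lay above every CAR wt library. The log2 fold change was 1.02 (SE 0.10, adjusted p = 4.5e-06), and an exact two-sided permutation test of the 6 values gave p = 0.1, its lowest possible result with 3 libraries a group. The call held in all 16 alternative settings, at log2 fold changes of 0.89 to 1.09.

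Ndufa4, its abundant partner, carries a complex I symbol but is a subunit of complex IV. It had 498, 529 and 550.1 FPKM in CAR ko libraries, against 629, 605 and 651 FPKM in CAR wt libraries, again without overlap, but lower in CAR ko. The log2 fold change was -0.26 (SE 0.06, adjusted p = 0.01), and without CAR wt replicate 3 the adjusted p was 0.051. Ndufv1, which binds NADH, had 62.9, 69.0 and 64.7 FPKM in CAR ko libraries, against 74.5, 76.2 and 78.6 FPKM in CAR wt libraries, with a log2 change of -0.22 (SE 0.06, adjusted p = 0.035). Ndufs1, the largest core subunit, went the other way. It had 39.6, 44.7 and 40.2 FPKM in CAR ko libraries, against 34.8, 34.7 and 31.7 FPKM in CAR wt libraries, with a log2 change of 0.29 (SE 0.09, adjusted p = 0.04). Both sets of libraries were separate, but the call of Ndufv1 was lost in 7 of 16 alternatives and that of Ndufs1 in 9, including, for Ndufs1, the omission of any 1 of the 6 CAR libraries.

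In complex III, Uqcrfs1, the Rieske iron-sulfur protein, was the gene called. It had 52.1, 65.1 and 64.5 FPKM in CAR ko libraries, against 75.8, 75.6 and 69.7 FPKM in CAR wt libraries, with no overlap. The log2 fold change was -0.29 (SE 0.08, adjusted p = 0.035), and the call was lost without CAR ko replicate 1 (-0.18, adjusted p = 0.15), without CAR wt replicate 1 or without CAR wt replicate 2. It was also lost with no filter and in a fit of only the groups compared, so in 5 of 16 alternatives in all. The core proteins Uqcrc1 and Uqcrc2 had 145 ± 7.57 and 55.3 ± 6.83 FPKM in CAR ko, against 142 ± 9.72 and 56.8 ± 2.50 FPKM in CAR wt libraries (SD, n = 3 each), and neither passed.

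Genes with complex IV symbols had 3 called decreases, beside that of Ndufa4 above. Cox4i1, the ubiquitous form of the regulatory subunit 4, had 427, 482 and 487 FPKM in CAR ko libraries, against 537, 527 and 557 FPKM in CAR wt libraries, with a log2 change of -0.22 (SE 0.07, adjusted p = 0.041). Cox5a, a small subunit on the matrix side, had 137, 132 and 151 FPKM in CAR ko libraries, against 178, 155 and 164 FPKM in CAR wt libraries, with a log2 change of -0.24 (SE 0.07, adjusted p = 0.04). Cox6b2, the isoform best known from testis, had 12.5, 23.3 and 23.6 FPKM in CAR ko libraries, against 43.0, 43.0 and 31.1 FPKM in CAR wt libraries, with a log2 change of -0.98 (SE 0.25, adjusted p = 0.016). In all 3 genes the CAR ko libraries lay below the CAR wt libraries, and the lowest library was CAR ko replicate 1 for Cox4i1 and Cox6b2 and CAR ko replicate 2 for Cox5a. None of the 3 calls held without CAR ko replicate 1. In all, Cox4i1 and Cox5a each lost their call in 7 of 16 alternatives, and Cox6b2 in 4. The abundant partner Cox6b1 had 471 ± 82.1 FPKM in CAR ko and 546 ± 13.7 FPKM in CAR wt libraries (SD, n = 3 each), and its log2 fold change of -0.23 (SE 0.11, adjusted p = 0.22) did not pass.

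In complex V, Atp5g3, the main gene for the c ring of the rotor, had 392, 427 and 411 FPKM in CAR ko libraries, against 495, 447 and 489 FPKM in CAR wt libraries. The groups did not overlap, and the log2 fold change was -0.22 (SE 0.06, adjusted p = 0.018). Without CAR ko replicate 1 or replicate 3, or without CAR wt replicate 1 or replicate 3, Atp5g3 was not called. Nor was it called in a fit of only the groups compared. The catalytic Atp5b, by contrast, had 439, 473 and 463 FPKM in CAR ko libraries, against 481, 463 and 442 FPKM in CAR wt libraries, with a log2 change of -0.01 (SE 0.05, adjusted p = 0.94) with overlapping libraries. No gene of complex II was called, and its 4 subunits changed by -0.10 (Sdhd) to -0.02 (Sdha) on the log2 scale.

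In PaS cells the ko genotype went with a rise of the same Ndufa4l2, here to 2.18 times its wt level, and of Cox4i2, the alternative form of cytochrome oxidase subunit 4 known as oxygen-regulated, to 1.89 times. A pair of complex I subunits, Ndufc1 and Ndufs8, rose by smaller amounts. These 4 genes were all that were called, against 7.44% of all tested genes; 4 were higher, a share of 4.71% against 3.41% of all genes, and 0 lower, against 4.03%. The median log2 fold change of the 85 was 0.07, beside 0.00 over all genes, with 68 of 85 above 0. Without PaS wt replicate 2 the median was 0.02, with 50 of 85 above 0 and 3 called. Without PaS wt replicate 3 it was 0.14, with 74 of 85 above 0 and 6 called. The share higher was 3.53% without PaS wt replicate 2, against 2.79% of all genes. It was 7.06% without PaS wt replicate 3, against 3.22%. Without PaS ko replicate 1, or without PaS ko replicate 3, 2 were called. The share higher was 2.35% in both cases, against 2.65% and 2.82% of all genes. 

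Ndufa4l2 had 88.7, 77.2 and 81.0 FPKM in PaS ko libraries, against 39.4, 34.0 and 38.3 FPKM in PaS wt libraries. The PaS ko libraries were all far above the PaS wt libraries. The log2 fold change was 1.12 (SE 0.10, adjusted p = 1.7e-06), and it was called in all 16 alternatives. It was the 1 gene called in both cell types, which is 11.1% of the 9 in CAR and 25% of the 4 in PaS cells, beside 19.9% and 32.8% when the same is counted over all tested genes. The difference between its changes was -0.11 (SE 0.14, adjusted p = 0.73).

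Cox4i2 had 10.3, 12.2 and 16.0 FPKM in PaS ko libraries, against 6.09, 5.86 and 6.80 FPKM in PaS wt libraries. Its PaS ko libraries were spread from 10.3 to 16.0 FPKM but lay above every PaS wt library. The log2 fold change was 0.91 (SE 0.14, adjusted p = 0.00049), called in all 16 alternatives. In CAR cells the gene had 17.9, 22.4 and 19.9 FPKM in CAR ko libraries, against 16.2, 16.7 and 19.3 FPKM in CAR wt libraries, where the libraries overlapped and the log2 fold change of 0.20 (SE 0.14, adjusted p = 0.44) did not pass.

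Ndufc1, a small accessory subunit of the complex I membrane arm, had 89.1, 82.4 and 88.5 FPKM in PaS ko libraries, against 71.2, 71.1 and 70.9 FPKM in PaS wt libraries. Ndufs8, a core subunit that carries iron-sulfur clusters, had 141, 137 and 138 FPKM in PaS ko libraries, against 112, 99.1 and 121 FPKM in PaS wt libraries. Libraries of the groups did not overlap in either gene. The log2 fold changes were 0.28 (SE 0.07, adjusted p = 0.013) for Ndufc1 and 0.33 (SE 0.09, adjusted p = 0.042) for Ndufs8. Ndufc1 was not called without PaS ko replicate 1 or without PaS ko replicate 3, and Ndufs8 lost its call in 7 of 16 alternatives, among them the omission of any PaS ko library. In the other complexes, no gene of complex II, III or V was called in PaS cells.

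**Figure D3:**
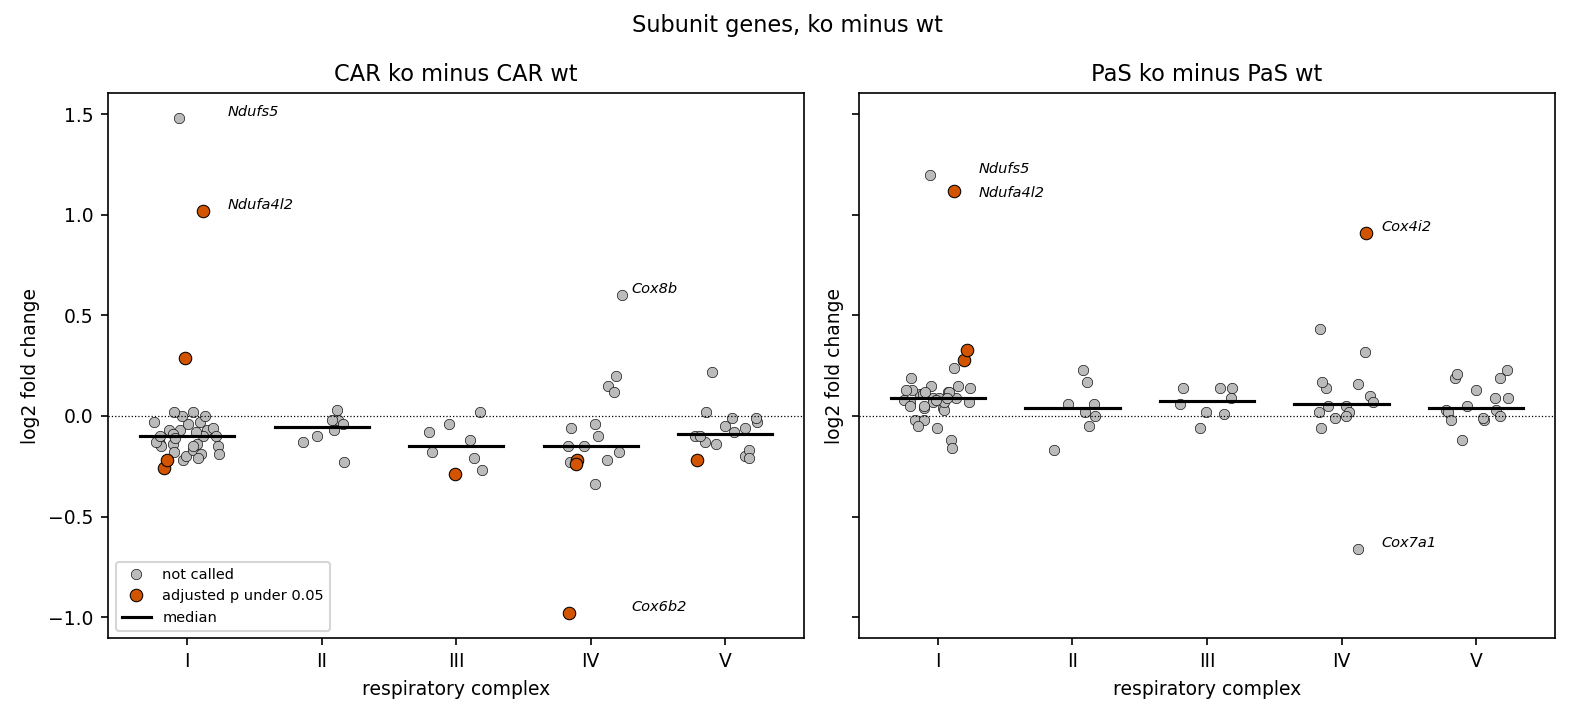
Log2 fold change (y axis, log2(FPKM + 1) scale) of each of the 85 genes by complex (x axis), ko minus wt, in CAR cells (left) and PaS cells (right). Orange points are called at adjusted p under 0.05, and black lines are medians per complex; Ndufa4l2 is above 1 in both cell types, Cox4i2 in PaS cells at 0.91 and Cox6b2 in CAR cells at -0.98, while most points lie within 0.25 of 0.

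Whether the ko changes differed between the cell types was tested directly, as the change in CAR minus the change in PaS cells. For 5 genes it did, a share of 5.88% against 6.58% of all tested genes. Of the 85, 0 had a higher value, against 3.32% of all genes, and 5 a lower value, a share of 5.88% against 3.26%. The median difference of the 85 was -0.18, beside 0.02 over all genes, and 76 of 85 lay below 0. It was -0.05 with both low libraries, CAR ko replicate 1 and PaS wt replicate 2, left out, and 0 genes were then called. Leaving out single libraries gave 0 to 5 called genes. The count was 0 without CAR wt replicate 1, without PaS ko replicate 3 or without PaS wt replicate 2. Without PaS wt replicate 3, 4 were called, all lower, a share of 4.71% against 2.92% of all genes, and the median was -0.25.

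Of these 5 genes, 4 belong to complex IV. Cox6b2 had 21.7, 14.7 and 22.7 FPKM in PaS ko libraries, against 15.8, 9.71 and 18.2 FPKM in PaS wt libraries, where the groups overlapped, and the difference between its CAR and PaS changes was -1.41 (SE 0.35, adjusted p = 0.023), or -0.88 (adjusted p = 0.062) without both low libraries. Cox4i2 differed by -0.72 (SE 0.20, adjusted p = 0.041), with the PaS change the larger. Cox5a had 154, 146 and 162 FPKM in PaS ko libraries, against 147, 131 and 141 FPKM in PaS wt libraries, and its difference was -0.38 (SE 0.10, adjusted p = 0.035). Cox6c, a small subunit with no other isoform among these symbols, had 328, 347 and 359 FPKM in CAR ko libraries, against 415, 395 and 391 FPKM in CAR wt libraries. In PaS cells it had 347, 312 and 371 FPKM in PaS ko libraries, against 326, 284 and 309 FPKM in PaS wt libraries. CAR ko lay below CAR wt in every library of Cox6c, while the PaS groups overlapped. Its change passed in neither cell type, at -0.22 (SE 0.07, adjusted p = 0.057) in CAR and 0.16 (SE 0.07, adjusted p = 0.2) in PaS cells. Its difference was -0.38 (SE 0.10, adjusted p = 0.031). The complex I gene Ndufc1 had 90.8, 101 and 104 FPKM in CAR ko libraries, against 106, 98.2 and 104 FPKM in CAR wt libraries, and its difference was -0.34 (SE 0.09, adjusted p = 0.036).

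**Figure D4:**
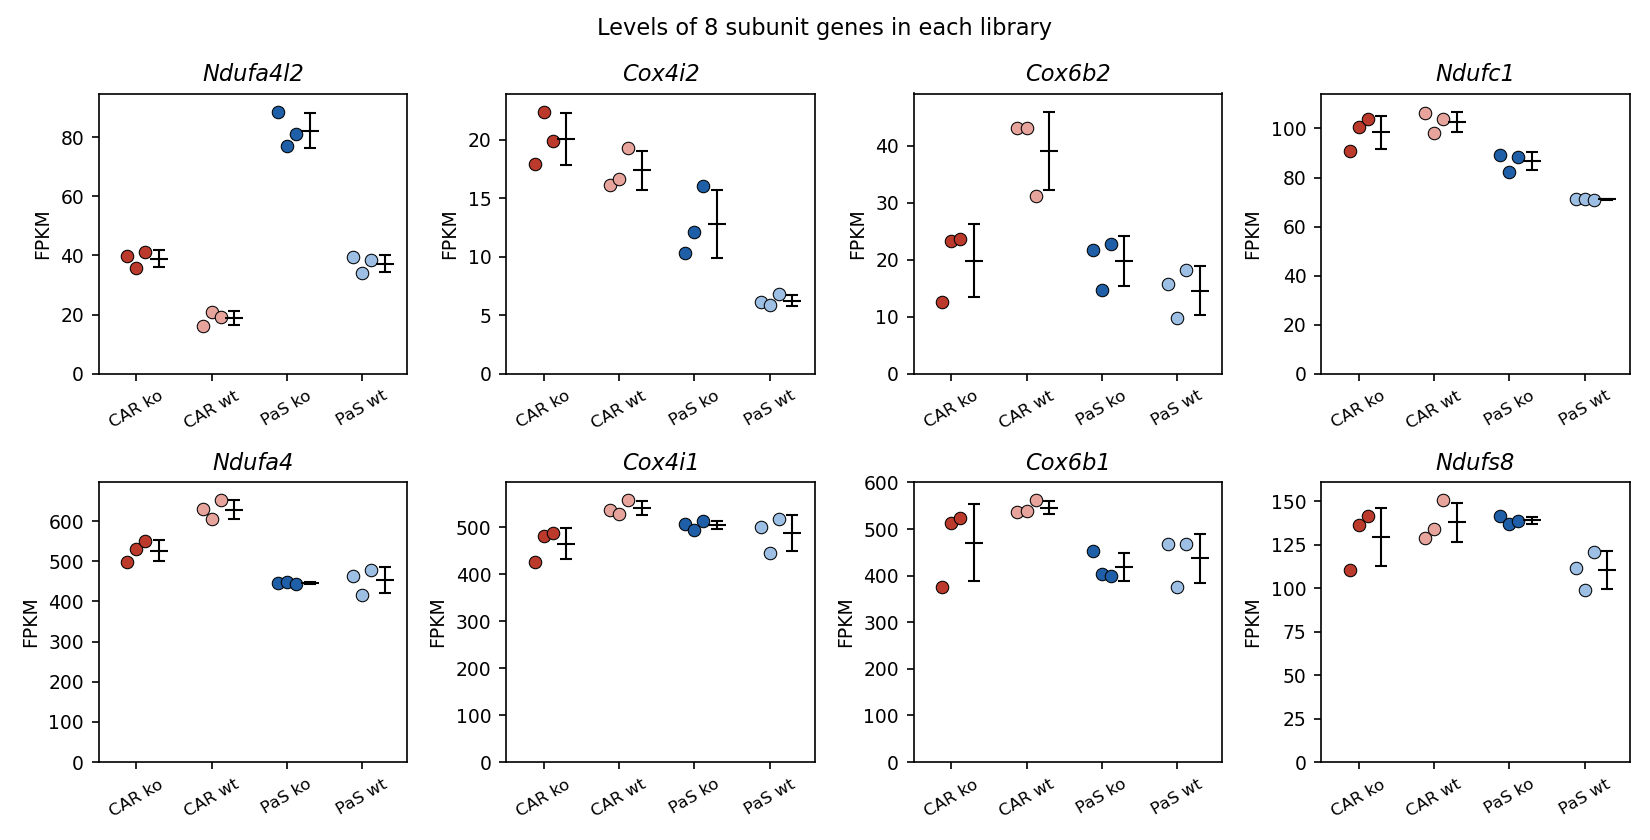
FPKM (y axis) of 8 subunit genes in each library of CAR ko, CAR wt, PaS ko and PaS wt (x axis), with the mean and SD of 3 libraries beside the points. Ndufa4l2 is higher in ko than in wt libraries of both cell types, Cox4i2 libraries separate in PaS cells but overlap in CAR cells, and Cox6b2 is highest in CAR wt libraries.

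Alternative isoforms were also read as a share of the summed FPKM of the isoform and its partner, which takes out a shift common to both. The Ndufa4l2 share of Ndufa4 and Ndufa4l2 was 6.90% ± 0.521 in CAR ko and 2.91% ± 0.407 in CAR wt libraries, and 15.6% ± 0.937 in PaS ko and 7.61% ± 0.211 in PaS wt libraries (SD, n = 3 each). The Cox4i2 share of both Cox4 genes was 4.13% ± 0.275 in CAR ko and 3.11% ± 0.218 in CAR wt libraries, and 2.48% ± 0.520 in PaS ko and 1.27% ± 0.0558 in PaS wt libraries. Shares of both isoforms did not overlap between ko and wt libraries in either cell type (exact permutation p = 0.1 each, the smallest possible). The Cox6b2 share of both Cox6b genes was 3.96% ± 0.644 in CAR ko and 6.69% ± 1.24 in CAR wt libraries (exact permutation p = 0.1), and 4.49% ± 0.937 in PaS ko and 3.17% ± 0.614 in PaS wt libraries (exact permutation p = 0.2). The ubiquitous form thus made up most of each pair in every library.

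The muscle and brown fat isoforms were near the floor. Cox6a2, the heart and muscle form of subunit 6a, had 0.493 to 5.15 FPKM, beside a mean of 534 FPKM for Cox6a1. Cox8b, likewise a muscle and brown fat form, had 0 to 4.82 FPKM, beside 472 FPKM for Cox8a, and Cox7a1 had 0.879 to 5.93 FPKM, beside 208 FPKM for Cox7a2. None of these 3 passed the test between ko and wt libraries in either cell type. Cox7a2l, which takes part in joining complexes III and IV, averaged 40.3 FPKM, and for the c ring Atp5g1 held 7.75% to 10.8% of the Atp5g total.

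Wild-type CAR cells held more RNA of the pathway than wild-type PaS cells. The small accessory subunits Ndufa3 and Ndufb2 were the furthest apart among the abundant genes, at 1.73 and 1.75 times the PaS wt level. Of the 85 genes, 43 were called, against 43.2% of all tested genes. By direction the members were not balanced: 40 were higher in CAR wt, a share of 47.1% against 20.5% of all genes, and 3 lower, a share of 3.53% against 22.7%. The median log2 fold change was 0.20, beside -0.00 over all genes, and 76 of 85 lay above 0. Without PaS wt replicate 2, 27 were called, 24 higher and 3 lower, and the median was 0.17. The share higher was then 28.2%, against 18.3% of all genes. Without PaS wt replicate 3, 47 were called, 44 higher and 3 lower, and the median was 0.26. The share higher was then 51.8%, against 19% of all genes. Beside this, 36 of 82 genes with cytosolic ribosomal symbols were higher and 3 lower (median 0.32). Those 3 were the S6 kinase genes Rps6ka2, Rps6ka4 and Rps6kc1. Of 76 mitochondrial ribosomal genes, 23 were higher and 3 lower (median 0.18), and all 10 cell cycle genes were higher (median 0.91). The part of these in the result was not tested.

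By complex, 19 of 37 genes were higher in complex I, 0 of 8 in complex II, 5 of 8 in complex III, 8 of 16 in complex IV and 8 of 16 in complex V. Among roles, 4 of 7 core genes of complex I were higher, with a median of 0.18, and 15 of 29 accessory genes, with a median of 0.26. In complex V, 1 of 5 genes of the catalytic head and 7 of 9 other subunits were higher. Ndufb2 had 299, 269 and 309 FPKM in CAR wt libraries, against 167, 142 and 196 FPKM in PaS wt libraries, with a log2 change of 0.80 (SE 0.10, adjusted p = 4.8e-06). Ndufa3 had 849, 786 and 859 FPKM in CAR wt libraries, against 490.3, 448 and 503 FPKM in PaS wt libraries, with a log2 change of 0.79 (SE 0.09, adjusted p = 4.3e-06). In both genes every CAR wt library lay above every PaS wt library.

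In complex III the largest differences were those of Uqcr11, at 0.49 (SE 0.13, adjusted p = 0.0055), and Uqcrq, at 0.45 (SE 0.11, adjusted p = 0.0033), both small subunits. In complex V, Atp5e, the epsilon subunit of the catalytic head, had 495, 457 and 515 FPKM in CAR wt libraries, against 335, 239 and 328 FPKM in PaS wt libraries, with a log2 change of 0.71 (SE 0.13, adjusted p = 0.00043). Atp5k, the e subunit that helps the synthase form dimers, had 207, 208 and 203 FPKM in CAR wt libraries, against 148, 140.1 and 152 FPKM in PaS wt libraries, with a log2 change of 0.49 (SE 0.11, adjusted p = 0.0022). Neither gene overlapped between the groups. The other head genes did not pass: Atp5b had 481, 463 and 442 FPKM in CAR wt libraries, against 448, 476 and 458 FPKM in PaS wt libraries, with a log2 change of 0.00 (SE 0.05, adjusted p = 0.97).

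In complex IV the isoforms moved most. Cox6b2, at 1.39 (SE 0.25, adjusted p = 0.00025), and Cox4i2, at 1.34 (SE 0.14, adjusted p = 1.1e-06), were higher in CAR wt cells, at 2.62 and 2.53 times the PaS wt level. Cox6a2 had 1.25, 0.493 and 1.22 FPKM in CAR wt libraries, against 3.34, 2.01 and 4.52 FPKM in PaS wt libraries, with a log2 change of -1.09 (SE 0.27, adjusted p = 0.004) that ran from -1.66 with a pseudocount of 0.1 to -0.46 with a pseudocount of 5. Cox8b had 0, 0.654 and 0 FPKM in CAR wt libraries, against 2.32, 4.05 and 4.82 FPKM in PaS wt libraries. It is counted among the 3 lower genes, but it reached 1 FPKM in 1 of 6 CAR libraries and passed the threshold through the PaS libraries, where it was higher, so that its levels are a description and no test is given. For both isoforms the CAR wt libraries lay below the PaS wt libraries, and an FPKM listed at 0 can be a failed estimate. The third gene lower in CAR wt was Ndufa4l2, at -0.96 (SE 0.10, adjusted p = 7.8e-07), so that the isoforms Ndufa4l2 and Cox4i2, both higher in PaS ko than in PaS wt, differed between the cell types in opposite directions.

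Between CAR ko and PaS ko cells fewer of the genes were called than between the wt groups, and the low CAR ko replicate 1 moved the values. Of the 85 genes 14 were called, against 36.9% of all genes: 11 were higher in CAR ko, a share of 12.9% against 17%, and 3 lower, a share of 3.53% against 19.8%. The median was 0.02, beside 0.00 over all genes, and 49 of 85 lay above 0. Without CAR ko replicate 1, 20 were called: 16 were higher, a share of 18.8% against 15.1% of all genes, and 4 lower, the median was 0.10 and 61 of 85 lay above 0. Without CAR ko replicate 3, 10 were called, 7 higher and 3 lower, the median was -0.04 and 37 of 85 lay above 0. Omission of CAR ko replicate 2 or of PaS ko replicate 2 also left 10 called, 7 of them higher, so that the share higher lay above or below that of all genes according to the libraries used. All 14 were also called in the same direction between the wt groups, which is 100% of the 14 and 32.6% of the 43 there. Over all tested genes, those called in both in the same direction were 74.5% of the genes called between the ko groups. They were 63.6% of those called between the wt groups. These comparisons share no library, but both come from the same fit, so that the estimated spread of each gene is common to them. The fitted value was higher between the wt than between the ko groups for 76 of 85 genes. That gap is the difference of the ko changes given above, in which 5 genes passed.

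**Figure D5:**
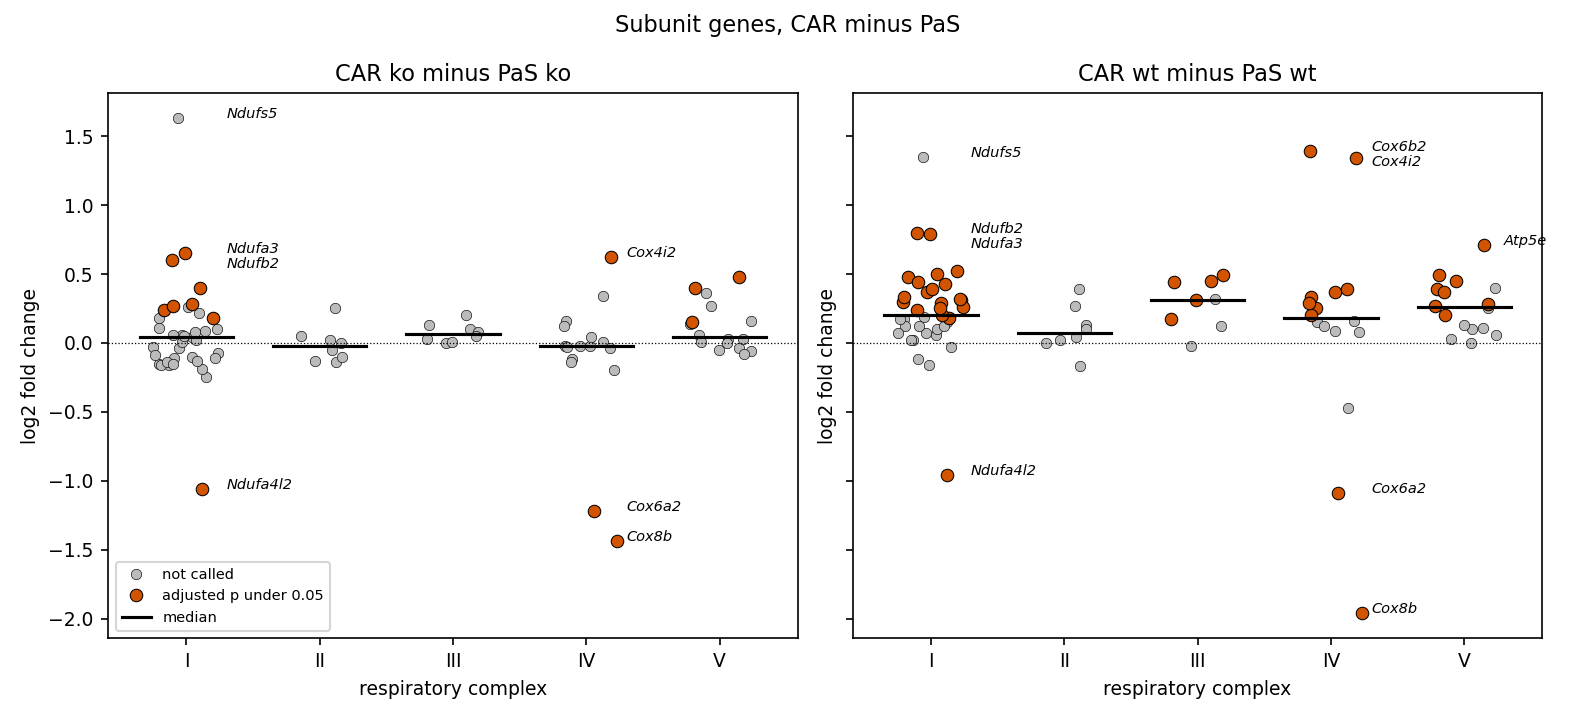
Log2 fold change (y axis, log2(FPKM + 1) scale) of each of the 85 genes by complex (x axis), CAR minus PaS, between ko libraries (left) and between wt libraries (right). Orange points are called at adjusted p under 0.05, and black lines are medians per complex; medians of complexes I, III, IV and V lie at -0.02 to 0.07 between the ko groups and at 0.18 to 0.31 between the wt groups.

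Ndufa3 and Ndufb2 had the largest differences among the called genes above 100 FPKM. Ndufa3 had 626, 740.4 and 812 FPKM in CAR ko libraries, against 523, 420.1 and 440.0 FPKM in PaS ko libraries, with a log2 change of 0.65 (SE 0.09, adjusted p = 3.6e-05). Ndufb2 had 253, 274 and 297 FPKM in CAR ko libraries, against 182, 177 and 183 FPKM in PaS ko libraries, with a log2 change of 0.60 (SE 0.10, adjusted p = 0.00011). Every CAR ko library lay above every PaS ko library in both. Atp5e, at 0.48 (SE 0.13, adjusted p = 0.0095), Atp5k, at 0.40 (SE 0.11, adjusted p = 0.01), and Cox4i2, at 0.62 (SE 0.14, adjusted p = 0.0022), were higher in CAR ko. Lower in CAR ko were Ndufa4l2, at -1.06 (SE 0.10, adjusted p = 2.5e-07), and Cox6a2, at -1.22 (SE 0.27, adjusted p = 0.0021), which ran from -1.87 with a pseudocount of 0.1 to -0.51 with a pseudocount of 5. The third gene counted as lower was Cox8b, given without a test as above, with 0.901, 1.47 and 0.223 FPKM in CAR ko libraries, against 4.69, 3.74 and 3.21 FPKM in PaS ko libraries. Atp5e was not called without CAR ko replicate 3 or without PaS ko replicate 2, nor Atp5k without CAR ko replicate 2 or without PaS ko replicate 2. The CAR ko and PaS ko libraries of Atp5k overlapped.

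Genes around the complexes were counted in the same fit. Of 42 assembly factors, 1 was higher and 2 lower in CAR ko than in CAR wt (median -0.02): Ecsit at 0.39 (adjusted p = 0.032), Ndufaf3 at -0.39 (adjusted p = 0.038) and Oxa1l, the inner-membrane insertase, at -0.51 (adjusted p = 0.033). In PaS ko against PaS wt, 3 were higher and 0 lower (median 0.09): Coa6, a copper-site assembly factor, at 0.43 (adjusted p = 0.0039), Higd1a, a hypoxia-inducible partner of complex IV, at 0.48 (adjusted p = 0.0088), and Ndufaf6 at 0.62 (adjusted p = 0.019). Among 6 further subunits and partners that the symbol rule does not take, Atpif1, the inhibitor of the ATP synthase, was called in both. Atpif1 had 117 ± 6.38 FPKM in CAR ko and 141 ± 11.6 FPKM in CAR wt libraries, and 108 ± 12.1 FPKM in PaS ko and 87.7 ± 4.97 FPKM in PaS wt libraries (SD, n = 3 each). Its log2 fold changes were -0.27 in CAR (adjusted p = 0.047) and 0.29 in PaS cells (adjusted p = 0.045), and the difference of -0.57 also passed (adjusted p = 0.009).

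None of 17 genes of the citric acid cycle and pyruvate dehydrogenase was called in either ko comparison (medians 0.01 and 0.00). Of 15 glycolysis genes, 1 was lower in each: Gpi1, at -0.38 in CAR cells (adjusted p = 0.01) and -0.37 in PaS cells (adjusted p = 0.015). Of 13 tested regulators of mitochondrial genes, 0 were called in CAR cells and 1, Myc, in PaS cells, at -0.36 (adjusted p = 0.0047). None of 16 import and carrier genes was called in either. Between the wt groups, 11 of 42 assembly factors were higher in CAR and 4 lower (median 0.14), 3 of the 6 further subunits and partners higher and 0 lower (median 0.41), 4 of 16 import and carrier genes higher and 0 lower (median 0.12), and 1 of 13 regulators higher and 0 lower (median 0.12). Of the 17 citric acid cycle genes, 1 was higher in CAR and 3 lower (median -0.03); the difference between these lists was not tested. Idh2, which makes NADPH in mitochondria, was higher at 0.79 (adjusted p = 6.2e-08) and Pdha1 lower at -0.42 (adjusted p = 0.00041). Of the 15 glycolysis genes, 1 was higher in CAR wt and 5 lower (median -0.26), with Pkm at -0.69 (adjusted p = 1.2e-07) and Pfkp at -1.35 (adjusted p = 2.5e-09).

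Since Ndufa4l2 and Cox4i2 are also abundant in pericytes and are raised by hypoxia, both lists stand beside them. Of 10 hypoxia targets tested, 2 were higher and 0 lower in CAR ko than in CAR wt, P4ha1 at 0.54 (adjusted p = 4e-05) and Bnip3 at 0.33 (adjusted p = 0.03). In PaS ko against PaS wt 1 was higher and 0 lower, Egln3 at 0.95 (adjusted p = 0.026). The 11 pericyte and smooth muscle markers summed to 46.9 to 55.6 FPKM in CAR ko and 51.8 to 56.3 FPKM in CAR wt libraries, and to 63.5 to 69.1 FPKM in PaS ko and 46.2 to 49.5 FPKM in PaS wt libraries. Of 10 tested, 3 rose in PaS ko, Rgs5 at 1.13 (adjusted p = 0.0081), Acta2 at 0.94 (adjusted p = 0.0044) and Tagln at 0.96 (adjusted p = 0.00053), and in CAR ko Cspg4 rose at 0.62 (adjusted p = 0.0067) and Abcc9 fell at -0.79 (adjusted p = 0.0035). None of the 11 was at 0 in all libraries. The 7 others tested, Myh11, Cspg4, Notch3, Kcnj8, Abcc9, Higd1b and Des, were not called in PaS ko against PaS wt. Their log2 fold changes ran from -0.36 (Abcc9) to 0.33 (Higd1b, at or below 0.985 FPKM in every PaS library). The part of pericytes in the change of Ndufa4l2 and Cox4i2 was not tested.

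Other cells that could be carried along also moved with the groups. The 10 neutrophil genes summed to 4553 to 5152 FPKM in CAR ko and 10111 to 11679 FPKM in CAR wt libraries, and to 6791 to 6960.3 FPKM in PaS ko and 21814 to 24550 FPKM in PaS wt libraries. Erythroid genes summed to 2562 to 2926 FPKM in CAR ko and 4552 to 5148 FPKM in CAR wt libraries, but overlapped between PaS ko (4819 to 5206 FPKM) and PaS wt libraries (3973 to 5126 FPKM). Cell cycle genes were lower for 9 of 10 in CAR ko than in CAR wt and higher for 6 of 10 in PaS ko than in PaS wt. Among the 82 genes with cytosolic ribosomal symbols, 1 was higher and 10 lower in CAR ko (median -0.18). In PaS ko 0 were higher and 1 lower (median 0.04). The 1 higher in CAR ko was the S6 kinase gene Rps6kc1. The 10 lower included Rps6ka1 and Rps19bp1, which are not ribosomal proteins either. Skeletal muscle markers, 10 in all, summed to 7.79 to 13.7 FPKM over all libraries, and of 5 brown fat markers the 1 tested, Dio2, was higher in PaS ko at 1.06 (adjusted p = 0.00027). In CAR ko against CAR wt, 0 of 9 tested lymphoid and pan-leukocyte genes were higher and 9 lower, 0 of 9 monocyte and macrophage genes higher and 5 lower, 7 of 8 osteoblast genes higher and 1 lower, and 2 of 8 chondrocyte genes higher and 4 lower. In PaS ko against PaS wt, the counts were 1 higher and 2 lower of the lymphoid and pan-leukocyte genes, 5 and 2 of the monocyte and macrophage genes, 7 and 0 of the osteoblast genes, and 7 and 0 of the chondrocyte genes. The lymphoid and pan-leukocyte genes summed to 98.8 to 104 FPKM in CAR ko and 279 to 293 FPKM in CAR wt libraries, and to 241 to 264 FPKM in PaS ko and 346 to 403 FPKM in PaS wt libraries. Monocyte and macrophage genes summed to 202 to 220 FPKM in CAR ko and 428 to 542 FPKM in CAR wt libraries, and to 860 to 964 FPKM in PaS ko and 1196 to 1278 FPKM in PaS wt libraries. Osteoblast genes summed to 40827 to 44334 FPKM in CAR ko and 27941 to 29772 FPKM in CAR wt libraries, and to 5852 to 6340 FPKM in PaS ko and 4080 to 4389 FPKM in PaS wt libraries. The osteoblast gene called lower in CAR ko was Col1a1, which was listed at 0 in some CAR ko libraries while it reached 4677 FPKM in another. Of 5 megakaryocyte genes, 2 were lower in CAR ko and 3 lower in PaS ko, and of 6 endothelial genes 1 was higher in CAR ko and 1 lower in PaS ko. The part of all these cells in the changes of the respiratory genes was not tested.

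Promoter windows of 300 bases, from 250 before to 50 after the annotated start in RefSeq (build GRCm38.p6), were held for 71 of the 85 genes and read for motifs of the factors known to act on respiratory genes. Ndufa4l2, Cox4i2, Cox4i1 and Ndufs1 were among the genes without a window, so the shares below leave them out. The letters were searched on both strands. CCGGAAG, the core of ETS factors such as GABP, was in 26.8% of the 71 windows, against 9.93% of all 27025 windows and 19.4% of those of tested genes. CGCATGCG, bound by NRF1, was in 11.3%, against 2.07% and 4.18%, AAGATGGC, bound by YY1, in 15.5%, against 3.19% and 5.19%, and AAGGTCA, bound by ERR factors, in 11.3%, against 5.38% and 3.9%. The hypoxia response cores ACGTG and GCGTG were in 26.8% and 54.9%, against 21.8% and 35.2% of all windows and 29% and 55.5% of those of tested genes. The palindrome CACGTG holds ACGTG on both strands, and no motif searched lies within another. Windows are shown of 2 genes that rose in PaS ko and of 2 that fell in CAR ko, with the motif letters, or their complement on the minus strand, in capitals. The window of Cox6b2, the largest called decrease in CAR ko, held none of these motifs and is not shown. A match is a description of the letters only.
Ndufc1 (chr3:51408906-51409205, minus strand): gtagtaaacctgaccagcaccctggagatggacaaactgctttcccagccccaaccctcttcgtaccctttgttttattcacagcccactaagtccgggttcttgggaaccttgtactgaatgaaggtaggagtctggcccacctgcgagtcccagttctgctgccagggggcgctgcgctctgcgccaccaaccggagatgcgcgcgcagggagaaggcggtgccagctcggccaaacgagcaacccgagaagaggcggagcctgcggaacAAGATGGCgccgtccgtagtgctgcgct
Ndufs8 (chr19:3912725-3913024, minus strand): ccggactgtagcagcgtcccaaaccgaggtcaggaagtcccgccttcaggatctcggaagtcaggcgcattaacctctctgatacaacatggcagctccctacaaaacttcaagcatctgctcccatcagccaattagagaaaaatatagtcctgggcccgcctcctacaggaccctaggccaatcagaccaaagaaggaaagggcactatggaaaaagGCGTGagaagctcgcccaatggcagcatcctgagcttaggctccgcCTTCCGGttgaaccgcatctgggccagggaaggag
Cox5a (chr9:57520982-57521281, plus strand): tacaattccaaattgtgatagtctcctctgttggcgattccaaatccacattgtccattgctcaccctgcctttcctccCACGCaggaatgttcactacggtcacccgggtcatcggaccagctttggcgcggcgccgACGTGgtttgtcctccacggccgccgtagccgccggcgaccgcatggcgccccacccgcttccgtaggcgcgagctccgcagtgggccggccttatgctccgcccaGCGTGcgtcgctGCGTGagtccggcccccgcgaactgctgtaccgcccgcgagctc
Atp5g3 (chr2:73911277-73911576, minus strand): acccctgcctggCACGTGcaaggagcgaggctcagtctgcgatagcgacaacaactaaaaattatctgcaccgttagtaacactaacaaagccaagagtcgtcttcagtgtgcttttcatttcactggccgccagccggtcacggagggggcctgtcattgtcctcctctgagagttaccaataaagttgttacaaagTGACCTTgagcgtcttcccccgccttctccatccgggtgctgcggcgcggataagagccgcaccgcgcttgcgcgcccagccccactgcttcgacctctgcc
Ndufc1 held the YY1 letters 23 bases after the start, Ndufs8 the ETS letters 16 bases after it and GCGTG 31 bases before it, Cox5a ACGTG once and GCGTG 3 times, and Atp5g3 the ERR letters 52 bases before the start with ACGTG on both strands of 1 palindrome. No motif was in all 4 windows.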

How the data were processed

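RNA of sorted cells was enriched with oligo dT beads and made into SMART-Seq v4 libraries, per the labels' protocols. The tools named for the series include bcl2fastq 2.17.1.14, TopHat2 2.0.14, Cufflinks 2.2.1, Cuffnorm 2.2.1 and Cuffdiff with build mm10, per the submitters' processing notes; their order and settings are not given in the sources used here. The authors deposited FPKM values, 1 table of 24347 symbols per library, per the file headers. No counts are given, so the depth is unknown and counting intervals could not be given; from the single-read steps of low genes, library depths were 0.887 to 1.12 times their mean. Strand use in counting is not stated.

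From these values, log2(FPKM + 1) of the 12938 genes with at least 1 FPKM in 3 of 12 libraries was fitted in limma 3.58.1 (R 4.3.3) with 4 group means and a trended eBayes step, with 8 residual degrees of freedom. The fit was tested on simulated data with separate noise for each gene and library. A shift common to many genes of a library, as in the low pair, was not simulated. A gene was called at a two-sided Benjamini-Hochberg adjusted p under 0.05 over all tested genes, and every adjusted p in the text is from this test. The pseudocount makes fold changes of low genes too small. Errors of FPKM are SDs of 3 libraries and SE is the model's. "Rose", "fell" and "called" are used only of genes that passed.

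The gene set, lists, named genes and tests were chosen with earlier results of these data known. Named were genes called in the ko contrasts or their difference, the 2 largest called changes each way per complex between cell types, isoforms with their partners, the highest gene per complex, and up to 4 called genes of each list. Alternatives were pseudocounts of 0.1 and 5, no filter or one of 5 FPKM, median-ratio and quantile scaling, library weights, only the groups compared, failed estimates as missing, a replicate block and leaving out each library. The list and marker genes of other cell types are described by counts and sums without a test of the list. Plots were made in matplotlib 3.10.9 (Python 3.11.15).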

Additional observations from a re-analysis of the deposited data

Results flagged for a closer look

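For 5 genes the ko change differed between the cell types by limma's test of the difference itself, CAR minus PaS. They were 5.88% of the oxidative phosphorylation genes, against 6.58% of all tested genes. The values were -1.41 (SE 0.35, adjusted p = 0.023) for Cox6b2, -0.38 (SE 0.10, adjusted p = 0.031) for Cox6c, -0.38 (SE 0.10, adjusted p = 0.035) for Cox5a, -0.34 (SE 0.09, adjusted p = 0.036) for Ndufc1 and -0.72 (SE 0.20, adjusted p = 0.041) for Cox4i2. Cox6b2 and Cox5a fell in CAR ko and did not pass in PaS ko, whereas Cox4i2 and Ndufc1 rose in PaS ko and did not pass in CAR ko. Cox6c passed in neither. Each difference lost its call in 7 (Cox6b2) to 12 (Cox4i2) of 22 alternatives, among them the omission of PaS wt replicate 2. Groups of 3 libraries were too small for a test of single outlying libraries.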

How the results depend on the processing

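Of 730 alternative values for 44 named results, 617 kept direction and side of the threshold, 107 no longer passed, 5 newly passed and 1 reversed: Cox4i1 in PaS ko minus PaS wt, which did not pass and was -0.01 without PaS wt replicate 2. The count of called genes in CAR ko minus CAR wt was 4 with no filter and 5 with only the groups compared, against 9, and 2 to 7 with single libraries left out. In PaS ko minus PaS wt it was 2 to 6 with single libraries left out. For the difference of the ko changes it was 1 with no filter and 9 with quantile normalization, against 5, 0 to 5 with single libraries left out, and 0 with both low libraries left out, an alternative chosen after seeing the data, under which the median was -0.05. With single libraries left out, CAR wt minus PaS wt gave 27 to 47 and CAR ko minus PaS ko 10 to 20 called genes, and the median of CAR ko minus PaS ko ran from -0.04 to 0.10. With no filter more genes enter the adjustment, and leaving out a library leaves fewer samples; for quantile normalization the cause was not tested. Whether same-numbered libraries are paired is not stated. Correlations of same-numbered deviations were -0.041 to 0.178, which with 3 libraries a group cannot decide it. With the replicate number as a block, 8, 5, 6, 44 and 14 genes were called in CAR ko minus CAR wt, PaS ko minus PaS wt, their difference, CAR wt minus PaS wt and CAR ko minus PaS ko. The unknown depth and 3 libraries per group limit what small changes can be called.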
